A study of Homo sapiens with 12 samples.

Results

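The genes that encode the proteasome were followed in Ramos cells, an established line of malignant human B cells from a Burkitt lymphoma, with and without forced expression of microRNA-28 (miR-28). They were taken as every protein-coding gene in the deposited table whose symbol is PSMA, PSMB, PSMC, PSMD, PSME, PSMF or PSMG followed by a number, which gave 47 genes of the 12725 measured. All 12 libraries come from the same design. Ramos cells carried pTRIPZ, a lentiviral vector switched on by doxycycline, with an insert that was either miR-28 or a scrambled control sequence. Cells of both groups had been kept under puromycin at 0.4 µg/ml, had received doxycycline at 0.5 µg/ml for 2 days and had been sorted for the red fluorescent protein of the vector, so that drug, inducer and sort were shared by the controls. Each of the 6 sample pairs holds 1 scramble and 1 miR-28 library of polyadenylated RNA. Pairs 1 to 3 belong to library batch 1 and pairs 4 to 6 to library batch 2. A XENO number, whose meaning is not given, is 1 for pairs 1, 4 and 5 and 2 for pairs 2 and 6, and pair 3 has none. Nothing in the labels says that the pairs were separate cultures, so p-values measure only the spread among these samples. Values are CPM, reads relative to the size of the library, scaled with TMM, a factor that corrects each library for its composition, and are called TMM-scaled CPM.

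The proteasome is the protease that takes apart ubiquitin-tagged proteins. Its barrel, the 20S core, is built of rings of alpha subunits, which gate the entrance, around rings of beta subunits, of which PSMB5, PSMB6 and PSMB7 cut peptide bonds. The 19S cap recognises and unfolds the substrate. It has a base with a ring of ATPases and a lid that removes ubiquitin. Lymphoid cells also make the immunoproteasome, in which PSMB8, PSMB9 and PSMB10 take the place of PSMB5, PSMB6 and PSMB7 and which yields peptides suited to MHC class I molecules. Further members are chaperones that help to assemble core and base, caps that can replace the 19S particle, and an inhibitor. The thymus-specific PSMB11 is not analysed here.

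The microRNA itself is shown first, since a match to its seed is the sequence feature through which a transcript could be bound. Matches were searched for miR-28-3p alone, and miR-28-5p, the other arm of the hairpin, is not analysed here. The mature miR-28-3p (RefSeq, GRCh38.p14) is printed with its seed, bases 2 to 8, in capitals, followed by the members whose 3' UTR held the complementary ATCTAGT, in capitals, with the bases on either side in transcript orientation.
miR-28-3p: cACUAGAUugugagcuccugga
PSMD11: tactccaaagagATCTAGTtttggagt
PSMD5: gtgactggaattATCTAGTccccagat
PSME3: aatgaaactctcATCTAGTtctgtgat

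These 3 of 47 members (6.38%) compare with 7.95% of the 10771 genes for which the longest 3' UTR of a protein-coding transcript in GENCODE release 29 could be searched. The median 3' UTR was 368 bases in members and 1358 in all genes searched. The sites lay in PSMD11, a lid subunit, PSMD5, a chaperone of the base, and PSME3, the nuclear activator cap. Their log2 fold changes, miR-28 against scramble, were -0.11 (SE 0.146), 0.092 (SE 0.142) and -0.14 (SE 0.174) in that order, so 2 were below 0 and 1 above, and 0 of the 3 passed the test of the first comparison. A match of letters is a description and not a site shown to be bound.

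The libraries held 15404730 to 37876636 reads, and a member had between 337 and 16128 reads in a library. MIR28, the inserted gene, had 19 to 76 reads in the miR-28 libraries and 0 in the scramble libraries, where 3 reads, the limit that a count of 0 allows, would be 0.0830 to 0.181 TMM-scaled CPM. All 10 B cell markers looked for were in the table, with summed values of 10044 to 12179 in scramble and 9791 to 12142 in miR-28. None of the 6 T cell, 5 myeloid and 6 stromal or epithelial markers was among the 12725 genes analysed here. Transcripts of the mitochondrial genome took 7.45% of reads in the scramble library of pair 3 and 3.43% in its partner, against 1.19% to 2.88% in the other libraries. For 6 named members in which pair 3 stood apart, the fold change is also given without it.

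The first comparison asked whether proteasome transcripts changed when miR-28 was induced. None of the 47 members passed the test, in either direction. Their fold changes were small, from -0.26 for PSMB2 to 0.19 for PSMG1 on the log2(value + 1) scale, and 35 of 47 were below 0, against 52.9% of all genes. The median over members was -0.063, and over all genes -0.010. The test was limma on log2(value + 1), in a model of group and library batch, at a Benjamini-Hochberg adjusted p under 0.05 over all 12725 genes. It called 2 genes, 0.0157% of those tested, and at an unadjusted p under 0.05 it held 42 genes (0.33%) and 0 members. With the pair as a block the same model called 3 genes (0.0236%) and 0 members, whose smallest adjusted p was 0.607. The count tests on the recovered reads called 0 members too. With batch, edgeR called 0 genes and DESeq2 2 (0.0158%), and at an unadjusted p under 0.05 they held 45 (0.354%) and 78 (0.613%), with 0 members. With the block, edgeR called 1 gene (0.00786%) and DESeq2 21 (0.165%), and unadjusted they held 883 (6.94%) and 1051 (8.26%), with 3 members each. SEs of the members' log2 fold changes ran from 0.0939 to 0.504 with batch and from 0.0573 to 0.137 with the block. Unless the block is named, the SE beside a gene is from the fit with batch, which does not remove differences between pairs. In a library made from many cells, a transcript carried by fewer cells and less of it per cell cannot be told apart.

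Without the pairing in view, every member's groups overlapped, while 0.0629% of all genes had groups that did not. Within pairs, 4 members were lower in miR-28 in all 6 pairs, namely PSMA1, PSMA5, PSMB2 and PSMF1, against 2.19% of all genes, and 0 were higher in all 6, against 2.07%. In limma with the block, 3 members, PSMA1, PSMA5 and PSMB2, were lower at an unadjusted p under 0.05 (3.68% of all genes) and 0 were higher (3.62%). The count of 35 members below 0 moved when a single library was left out of the fit with batch. The partner of that library stayed in, so differences in level between pairs entered these fold changes. The count was 22 without the miR-28 library of pair 3 and 22 without the scramble library of pair 5, where the median was 0.011 and 0.018. The median was -0.17 without the miR-28 library of pair 5. Leaving out whole pairs gave 26 to 37 members below 0, and without pair 3 there were 37, with a median of -0.066.

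The sign of the members' differences varied from pair to pair. Summed over the 47 members, the scramble and miR-28 values were 6955 and 6987 in pair 1, 6818 and 6994 in pair 2 and 4741 and 4351 in pair 3. They were 5491 and 4734 in pair 4, 7591 and 7512 in pair 5 and 4965 and 4549 in pair 6. The sum was thus higher with miR-28 in pairs 1 and 2 and lower in the other 4. Members below 0 numbered 19, 18, 29, 43, 27 and 33 of 47 in pairs 1 to 6, beside 49.8%, 53.7%, 50.5%, 52.2%, 47.8% and 51.0% of all genes. Pair 4 had the most members below 0, 43, and a median difference of -0.21, while that of all genes in pair 4 was -0.012. Within library batch 1 the median of the members was -0.017, with 25 of 47 below 0, and within batch 2 it was -0.11, with 40 of 47 below 0. The pairs within a batch differed as well. Their median differences were 0.025, 0.043 and -0.12 in pairs 1 to 3 and -0.21, -0.016 and -0.099 in pairs 4 to 6. The difference of the miR-28 effect between the batches, tested as an interaction term in limma, was called for 0 of 12725 genes. At an unadjusted p under 0.05 it held 9 genes and 0 members, and with the block 171 genes (1.34%) and 0 members.

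**Figure D1:**
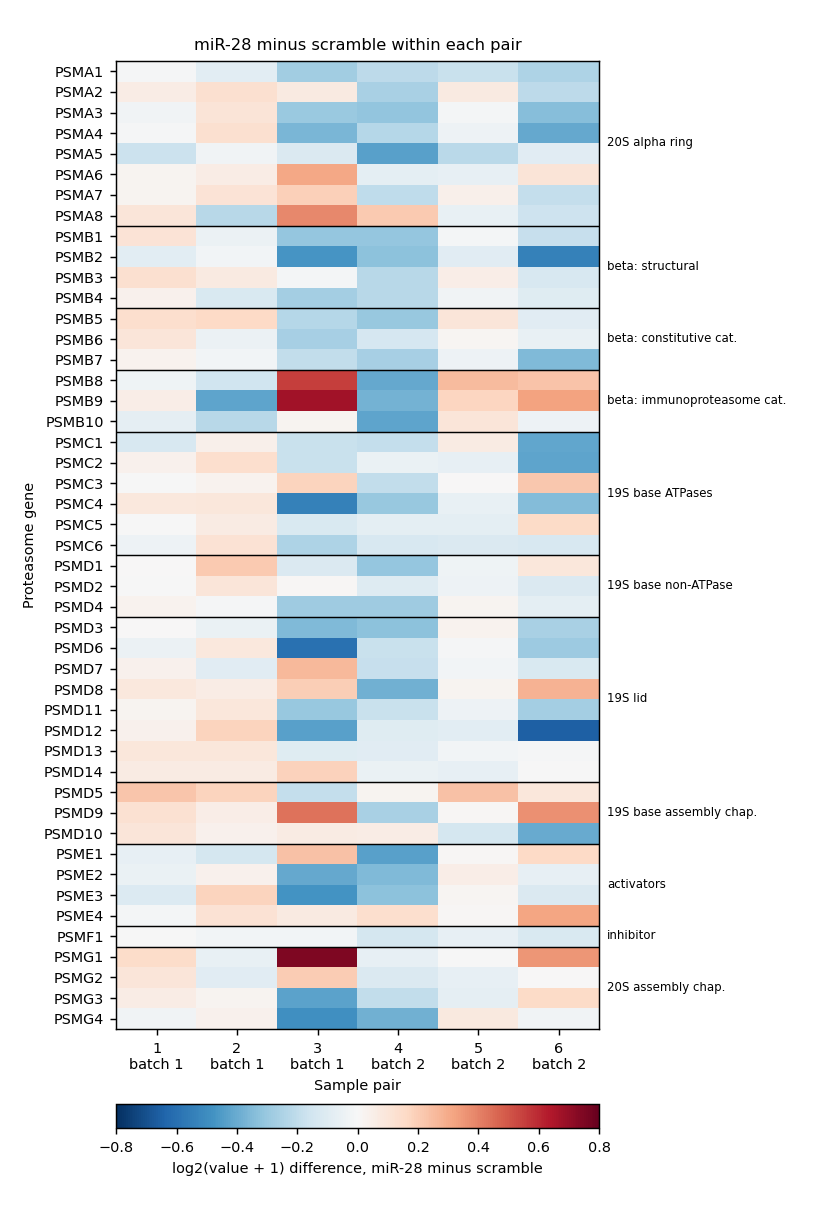
Each cell is the log2(value + 1) of the miR-28 library minus that of the scramble library of the same pair, for the 47 members ordered by role, with pairs 1 to 6 as columns; blue is lower and red higher in miR-28. The column of pair 4 is blue for 43 members, and the strongest colours of either kind lie in pairs 3 and 6.

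Alpha ring subunits build the outer rings of the core. Of the 8 genes, 6 were below 0, the median log2 fold change was -0.085, and 0 passed the test. PSMA1 (chr11:14504874-14643635, minus strand, GRCh38 as in GENCODE release 29) had values of 147, 159.7, 149, 161, 163 and 146 TMM-scaled CPM in the scramble libraries of pairs 1 to 6 and 146, 151, 123, 139, 144 and 123 in the miR-28 libraries. The miR-28 library was the lower in every pair, by a small margin in pair 1, though the groups overlapped. Means were 154 ± 7.86 in scramble and 138 ± 12.0 in miR-28 (SD, n = 6 each), and the log2 fold change was -0.17 (SE 0.0939). Its unadjusted p of 0.102 was the smallest among members in the limma fit with batch. PSMA5 (chr1:109399031-109426427, minus strand), named after its values were seen, was likewise lower in every pair, with 183, 168, 104, 139, 202 and 102 in scramble and 163, 164, 96.0, 102, 173 and 96.1 in miR-28. Its log2 fold change of -0.18 (SE 0.23) was smaller than its error in that fit, and in both groups its values differed more between pairs than within them. With the block, its unadjusted p in limma was under 0.05, and it was not called. PSMA7 (chr20:62136735-62143440, minus strand), the alpha subunit with the highest level per kilobase under the main measure of length, had 231, 204, 101, 138, 235 and 143 in scramble and 235, 219.7, 115, 119, 241 and 125 in miR-28. Pairs 4 and 6 were lower and the other 4 higher, and the log2 fold change was -0.0061 (SE 0.276). The other alpha genes covered 92.5 to 193 for PSMA2, 48.3 to 158 for PSMA3, 147 to 269 for PSMA4 and 131 to 338 for PSMA6. PSMA8, the alpha subunit known from the testis, was the lowest of the ring at 18.8 to 32.6, with reads in every library. PSMA6 and PSMA8 were the 2 above 0, at 0.060 (SE 0.266) and 0.040 (SE 0.139).

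The 4 structural beta subunits, which hold the inner rings together without cutting, were all below 0, with a median of -0.12 and 0 calls. PSMB2 (chr1:35599544-35641844, minus strand) had the lowest log2 fold change of the members, -0.26 (SE 0.236). Its values were 236, 237, 161, 195, 266 and 163 in scramble and 223, 233, 116, 155, 250.1 and 112 in miR-28 in pairs 1 to 6. The difference was negative in every pair but uneven, at -0.082, -0.022, -0.47, -0.33, -0.089 and -0.54 on the log2 scale, so that pairs 3, 4 and 6 carried most of it. Means were 209.7 ± 43.3 in scramble and 181 ± 61.6 in miR-28 (SD, n = 6 each). With the block the SE was 0.0839, the unadjusted p 0.0125 and the adjusted p 0.607 in limma. PSMB1 and PSMB4 were lower in 5 of 6 pairs, at -0.13 (SE 0.17) and -0.12 (SE 0.11), and PSMB3 in 3 of 6, at -0.019 (SE 0.352).

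The catalytic genes come in matched pairs, a constitutive subunit and its immunoproteasome counterpart. All 3 constitutive genes were below 0, with a median of -0.067, while 1 of 3 immunoproteasome genes was, with a median of 0.070. None of the 6 passed the test. PSMB5 (chr14:23016543-23035230, minus strand), the chymotrypsin-like subunit and the main target of proteasome inhibitor drugs, had 101, 98.3, 61.2, 69.4, 110.0 and 60.7 in the scramble libraries of pairs 1 to 6 and 111, 109.8, 52.2, 56.0, 118 and 57.0 in the miR-28 libraries. It was higher with miR-28 in pairs 1, 2 and 5 and lower in pairs 3, 4 and 6, and the log2 fold change was -0.039 (SE 0.262). PSMB6 (chr17:4796144-4798503, plus strand), the caspase-like subunit, had 48.1, 51.4, 18.1, 18.4, 59.4 and 21.2 in scramble and 51.5, 49.7, 14.9, 16.7, 60.0 and 20.3 in miR-28. Values of 48.1 or more in pairs 1, 2 and 5 stood against values of 21.2 or less in pairs 3, 4 and 6. The log2 fold change was small, -0.067 (SE 0.444). This SE is from the fit with batch, which does not remove differences between pairs. PSMB7 (chr9:124353466-124415444, minus strand), the trypsin-like subunit, was even across pairs, with 149, 158, 137, 163, 144 and 151 in scramble and 152, 155, 119.7, 136, 140.0 and 118 in miR-28. It was lower with miR-28 in 5 of 6 pairs, most in pairs 6 and 4. Means were 150.5 ± 9.36 in scramble and 137 ± 15.6 in miR-28 (SD, n = 6 each), at a log2 fold change of -0.14 (SE 0.103).

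PSMB8 (chr6:32840717-32844703, minus strand), the immunoproteasome counterpart of PSMB5, had 90.7, 91.2, 53.6, 64.9, 109.9 and 50.9 in scramble and 88.6, 81.6, 79.0, 48.5, 131 and 59.8 in miR-28. It was higher with miR-28 in pairs 3, 5 and 6, by as much as 0.55 log2 units in pair 3, and lower in the other 3, and the log2 fold change was 0.071 (SE 0.257). PSMB9 (chr6:32844136-32859585, plus strand), the counterpart of PSMB6, had 49.95, 58.8, 32.2, 36.7, 63.1 and 34.7 in scramble and 51.8, 43.5, 51.9, 28.03, 71.3 and 43.7 in miR-28. The differences of 0.051, -0.42, 0.67, -0.38, 0.17 and 0.32 in pairs 1 to 6 had the sign of those of PSMB8 in all but pair 1, and the log2 fold change was 0.070 (SE 0.236). PSMB8 and PSMB9 lie beside each other on opposite strands in the MHC region, their annotated exons overlap each other and those of PSMB8-AS1, and the strand setting of the counting is not given. Reads of the overlap cannot be told apart, so both values are uncertain to that extent. PSMB10 (chr16:67934502-67937087, minus strand), the counterpart of PSMB7, had 81.9, 77.7, 67.3, 70.8, 83.2 and 62.5 in scramble and 77.7, 66.6, 68.4, 52.6, 89.1 and 60.8 in miR-28, with the largest negative difference in pair 4 and a log2 fold change of -0.11 (SE 0.137). It lies outside the MHC region. Without pair 3, whose scramble library had the high mitochondrial share, the log2 fold change was -0.025 for PSMB8 and -0.051 for PSMB9, both still without a call.

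The balance between counterparts differed from pair to pair. The ratio of PSMB9 to PSMB6 values, which is not corrected for length, was 1.04, 1.14, 1.78, 1.99, 1.06 and 1.64 in the scramble libraries of pairs 1 to 6 and 1.00, 0.876, 3.49, 1.68, 1.19 and 2.16 in miR-28. Pairs 3, 4 and 6 had the high ratios in both groups. PSMB8 to PSMB5 ranged from 0.744 to 1.51 and PSMB10 to PSMB7 from 0.387 to 0.636 over the 12 libraries. The 1.51 and the 3.49 belong to the same library, miR-28 of pair 3.

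**Figure D2:**
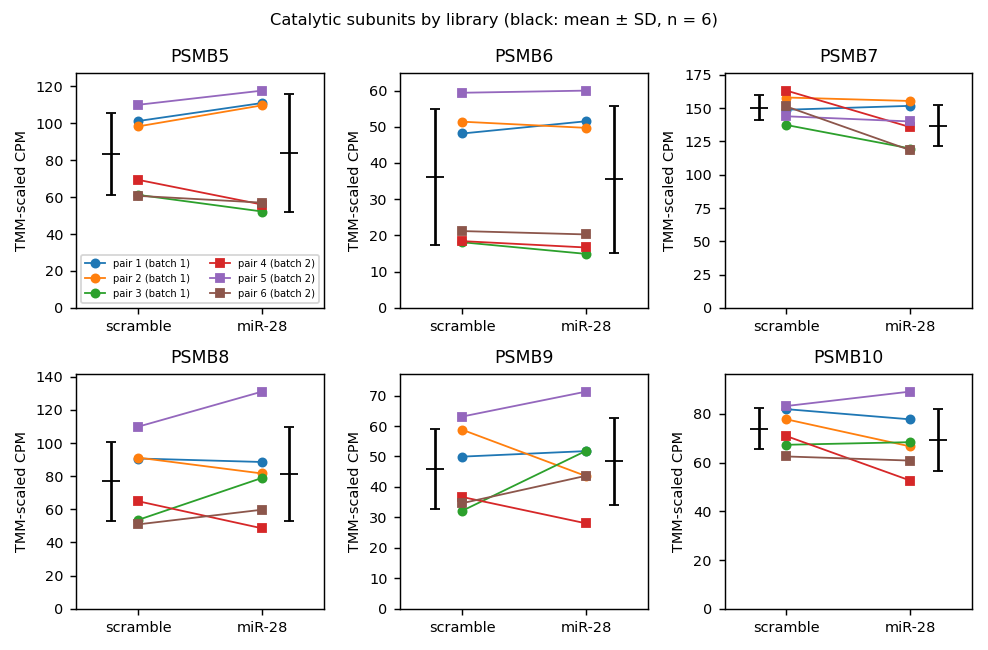
TMM-scaled CPM of the 3 constitutive (top) and 3 immunoproteasome (bottom) catalytic subunits; lines join the 2 libraries of a pair, circles are batch 1 and squares batch 2, and black marks are mean ± SD over 6 libraries. For PSMB6 the libraries of pairs 1, 2 and 5 lie at 48.1 or above and those of pairs 3, 4 and 6 at 21.2 or below, whereas the lines of PSMB7 lie close together.

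The base of the 19S cap holds 6 ATPases, which pull the substrate into the core. Of these 5 were below 0, with a median of -0.092 and 0 calls. PSMC4 (chr19:39971005-39981441, plus strand) had 90.7, 91.8, 114, 101, 102 and 99.9 in scramble and 96.3, 97.9, 77.8, 81.4, 98.2 and 78.2 in miR-28. It was slightly higher with miR-28 in pairs 1 and 2 and lower in the other 4, most in pair 3. Means were 99.9 ± 8.27 in scramble and 88.3 ± 10.1 in miR-28 (SD, n = 6 each), and the log2 fold change was -0.18 (SE 0.108). Without pair 3 it was -0.11, again with no call. Of all members, PSMC4 also had the smallest spread between pairs in the mean log2 level of the 2 libraries of a pair. In the miR-28 libraries alone, pairs 3, 4 and 6 lay at 77.8 to 81.4 and pairs 1, 2 and 5 at 96.3 to 98.2. Among the other ATPases, log2 fold changes ran from -0.13 for PSMC1 to 0.037 for PSMC3, and values from 69.3 for PSMC3 to 229 for PSMC2. The base subunits without ATPase activity are PSMD1 and PSMD2, scaffolds on which shuttling factors dock, and PSMD4, a ubiquitin receptor. All 3 were below 0, at -0.026 (SE 0.504), -0.026 (SE 0.364) and -0.10 (SE 0.223), with 0 calls. PSMD2 reached the highest value of any member, 519, in the scramble library of pair 5.

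The lid has 8 members in the table, of which 6 were below 0, with a median of -0.067 and 0 calls. PSMD6 (chr3:64010549-64024010, minus strand), a structural lid subunit, had 108, 99.2, 109.9, 91.8, 119 and 86.5 in scramble and 104, 105, 72.3, 81.2, 119 and 70.4 in miR-28. It was lower with miR-28 in 5 of 6 pairs, from -0.011 in pair 5 to -0.60 in pair 3, and the log2 fold change was -0.17 (SE 0.152). Without pair 3 it was -0.088. PSMD12, another structural subunit, had the largest negative log2 difference of any member in a single pair, -0.65 in pair 6, from 70.6 to 44.6, but was higher with miR-28 in pairs 1 and 2 and had a log2 fold change of -0.18 (SE 0.218), and was chosen with its values in view. PSMD14, the enzyme that removes ubiquitin from the substrate, was steady at 91.0 to 120.0, with a log2 fold change of 0.032 (SE 0.0957). PSMD3, PSMD7, PSMD8, PSMD11 and PSMD13 lay between 52.7 and 316 and had log2 fold changes from -0.16 to 0.043.

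Assembly chaperones lay on both sides of 0, with 0 calls. Of the 3 that build the base, 1 was below 0 and the median was 0.092, and of the 4 that build the core 2 were below 0 and the median was -0.036. PSMG1 (chr21:39174769-39183851, minus strand), a chaperone of the alpha ring, had the highest log2 fold change of the members, 0.19 (SE 0.356). Its values were 81.3, 89.0, 26.3, 36.2, 89.9 and 45.2 in scramble and 90.1, 85.2, 44.8, 34.6, 89.8 and 58.1 in miR-28, so that pairs 3 and 6 were higher, pair 1 slightly so, and pairs 2, 4 and 5 marginally lower. Without pair 3 the log2 fold change was 0.075. PSMD9 (chr12:121888731-121918297, plus strand), a chaperone of the ATPase ring, had 85.0, 87.7, 37.7, 41.9, 106 and 48.7 in scramble and 92.4, 91.1, 51.4, 34.8, 107 and 63.0 in miR-28. It was higher with miR-28 in 5 of 6 pairs, with pair 4 the exception, at 0.12 (SE 0.331), and at 0.057 without pair 3. Its exons overlap those of 2 genes on the same strand. PSMD5 (chr9:120815496-120842984, minus strand), which binds the base before the cap is complete and carries a miR-28-3p seed match, had 26.8, 24.6, 21.8, 24.8, 23.1 and 20.3 in scramble and 31.4, 27.98, 18.9, 25.1, 27.4 and 21.6 in miR-28. It was higher in 5 of 6 pairs and lower in pair 3, at 0.092 (SE 0.142). PSMG4 (chr6:3231403-3303373, plus strand), the partner of PSMG3 in another chaperone of the core, had 35.1, 31.0, 28.2, 25.8, 31.0 and 21.9 in scramble and 34.4, 31.8, 19.8, 19.5, 32.8 and 21.4 in miR-28. Pairs 3 and 4 held the largest negative differences, and the log2 fold change was -0.14 (SE 0.176). PSMD10, PSMG2 and PSMG3 were at -0.047 (SE 0.106), 0.0055 (SE 0.126) and -0.077 (SE 0.13).

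Of the 4 activator genes, which encode caps other than 19S, 3 were below 0, with a median of -0.086 and 0 calls. PSME4 (chr2:53864067-53970840, minus strand), the large nuclear cap, was the exception. It had 160.0, 163, 116, 106, 173 and 129.7 in scramble and 159, 177, 121, 116, 174 and 162 in miR-28, was higher with miR-28 in 5 of 6 pairs, most in pair 6, and had a log2 fold change of 0.11 (SE 0.165). PSME1 and PSME2, which form the interferon-inducible cap together, ranged over 69.7 to 228 and 89.97 to 212, with log2 fold changes of -0.040 (SE 0.337) and -0.13 (SE 0.257). PSME3 ranged over 221 to 390.4, at -0.14 (SE 0.174). The inhibitor PSMF1 (chr20:1113263-1189415, plus strand), named after its values were seen, was lower with miR-28 in all 6 pairs, but by little: lowest, median and highest values were 88.4, 114 and 138 in scramble and 80.7, 109 and 132 in miR-28, and the log2 differences were -0.0037, -0.022, -0.024, -0.14, -0.068 and -0.12 in pairs 1 to 6. Its unadjusted p with the block was 0.296 in limma.

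The larger differences lay between pairs. In 35 of 47 members the 3 lowest pair means were those of pairs 3, 4 and 6, an order found in 30.0% of all genes. In 2 members, PSMC1 and PSMG2, these pairs held the 3 highest, an order found in 31.5% of all genes, and in 10 neither held. This order is described only, since it was seen in these values, and no label divides the pairs in this way. The sums of the scaled values over all genes did divide them so. They were 923711 to 987089 in the libraries of pairs 3, 4 and 6 and 1033742 to 1096711 in those of pairs 1, 2 and 5. The part of the scaling in this order was not tested. As a share of unscaled reads the members took 0.461% (pair 3, miR-28) to 0.578% (pair 4, scramble) in pairs 3, 4 and 6. In pairs 1, 2 and 5 they took 0.650% (pair 2, scramble) to 0.692% (pair 5, scramble). PSMD1 (chr2:231056864-231172827, plus strand), the large scaffold of the base and named after its values were seen, differed most between pairs. It had 172, 159, 49.2, 69.5, 213 and 56.5 in scramble and 172, 184, 45.4, 56.0, 208 and 60.1 in miR-28, with an SD over the 6 pair means of 0.95 on the log2 scale. PSMB6 followed with 0.83, PSMD8 with 0.77, PSMA3 with 0.71 and PSMD2 with 0.68, and PSMC4 was at the other end with 0.061. The median of this SD over members was 0.305, and 0.319 over the 10388 genes with a mean of 5 or more. So the members' spread between pairs was close to that of genes at large in these libraries, and 11 of 47 lay above the upper quartile of those genes, 0.495. By role, the 3 base subunits without ATPase activity had the widest median SD, 0.681, and the 6 ATPases the narrowest, 0.184. The order did not hold for the whole base, since PSMC1, another subunit of it, was at 134 in the scramble library of pair 5 and 182 in that of pair 3.

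**Figure D3:**
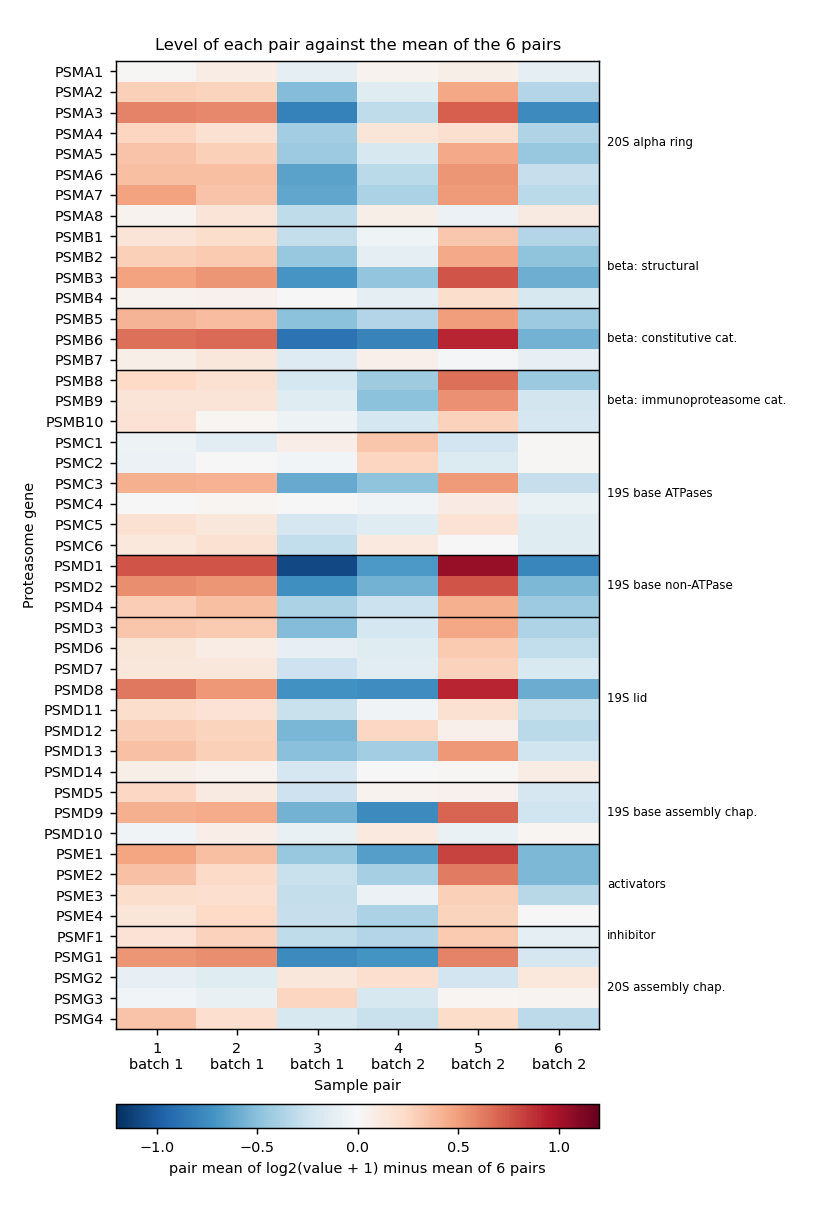
Each cell is the mean log2(value + 1) of the 2 libraries of a pair minus the mean over the 6 pairs, for the 47 members ordered by role; red is above and blue below the mean. Columns 1, 2 and 5 are mostly red and columns 3, 4 and 6 mostly blue, with the deepest colours at PSMD1, PSMB6 and PSMD8 and pale rows for PSMC4, PSMB7 and PSMA1.

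The labels name library batch as the known division of the pairs, and it was compared over pair means with limma, 3 pairs against 3. It called 0 of 12725 genes at an adjusted p under 0.05, with 6 genes (0.0472%) and 0 members at an unadjusted p under 0.05. In 40 of 47 members batch 2 was below batch 1, against 53.3% of all genes, and the median difference was -0.087, against -0.012 for all genes. Differences ran from -0.30 for PSMB6 to 0.079 for PSMC1. Of the pairs that were mostly low in the order described above, pair 3 is in batch 1 and pairs 4 and 6 are in batch 2. That order is thus split unevenly over the batches. Its part in these batch differences was not tested.

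Levels can be compared between genes only per length, and the length to use depends on which transcripts are made. Per kilobase of the longest annotated transcript, means over the 12 libraries ran from 6.02 for PSMG4 and 7.11 for PSMD5 to 147 for PSMB7 and 172 for PSMA7, with a median of 50.6 TMM-scaled CPM per kilobase. The union of all exons gave a median of 29.8, and the median transcript of the annotation's basic set 70.4. Under all 3 lengths, 6 members were among the 10 highest: PSMA7, PSMB1, PSMB4, PSMB7, PSMD7 and PSME1, of which 4 belong to the core. The 10 lowest under all 3 lengths shared 7 members: PSMA8, PSMD12, PSMD5, PSMD9, PSME4, PSMG3 and PSMG4. Of these, PSMD5, PSMD9, PSMG3 and PSMG4 are assembly chaperones. Core subunits of the same ring, which are present in equal number in the particle, still differed. PSMA7 had 172, 100.3 and 189.7 by longest transcript, exon union and basic median, and PSMA5 had 37.8, 24.6 and 53.9. Among the catalytic genes PSMB7 was the highest under each length. The order of PSMB6 and PSMB9 turned with the length, at 41.1, 24.7 and 41.6 for PSMB6 and 17.6, 15.3 and 59.9 for PSMB9, so it is not settled.

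**Figure D4:**
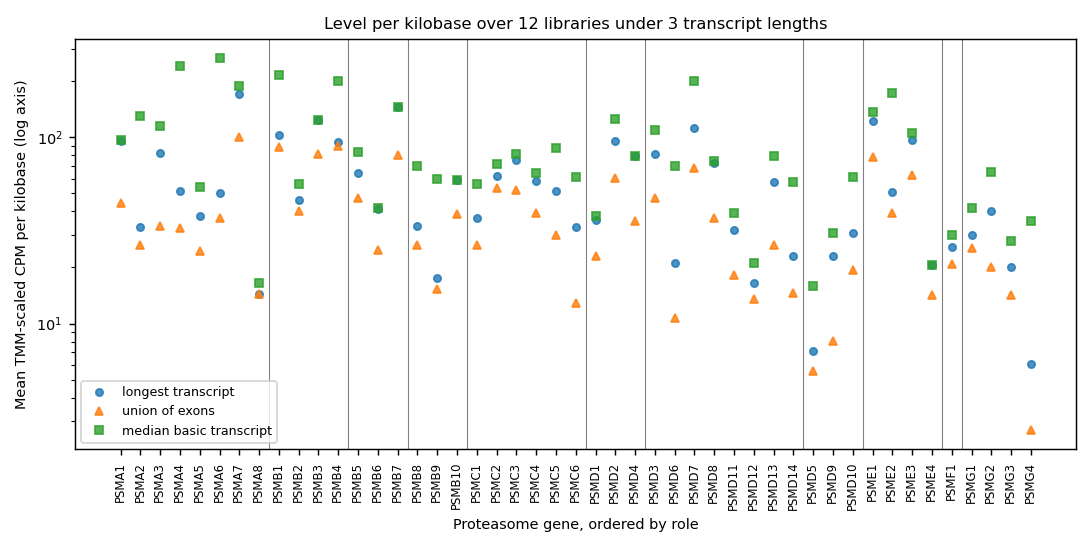
Mean TMM-scaled CPM per kilobase over 12 libraries for the 47 members, ordered by role, on a log axis; circles use the longest transcript, triangles the union of exons and squares the median transcript of the basic annotation set. PSMA7, PSMB1, PSMB4 and PSMB7 lie near the top and PSMD5 near the bottom under each length, while the gap between symbols is wide for PSMA6 and PSMG4.

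Other genes of the pathway were taken by lists. Among 10 further subunits and assembly factors, 7 were below 0 and 0 passed the test. ECPAS, which scaffolds the proteasome, was at -0.14 (SE 0.124) and TXNL1, a thioredoxin bound to the cap, at 0.080 (SE 0.129). Of 16 genes of ubiquitin, its activation and its delivery, 13 were below 0 and 0 passed, with NPLOC4, a cofactor of the VCP unfoldase, at -0.25 (SE 0.157) and RAD23B, a shuttle for ubiquitinated proteins, at 0.084 (SE 0.273). Of 8 partners of the immunoproteasome in MHC class I loading, 7 were below 0 and 0 passed. TAP1, a subunit of the peptide transporter, was at -0.20 (SE 0.125) and NLRC5, a transactivator of MHC class I genes, at 0.025 (SE 0.177). TAP1 (chr6:32845209-32853978, minus strand) lies within the annotated span of PSMB9, on the other strand.

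The list for transcriptional control of proteasome genes held 1 call, which depended on the block. Of the 7 genes 6 were below 0 with a median of -0.29, against -0.010 for all genes. NFE2L2 (chr2:177227595-177392697, minus strand), the stress-response factor NRF2, had 123, 125, 144, 146, 99.7 and 137 in the scramble libraries of pairs 1 to 6 and 91.8, 85.4, 86.8, 105, 60.7 and 95.9 in the miR-28 libraries. It was lower in all 6 pairs, and of the scramble libraries only that of pair 5 lay within the range of the miR-28 libraries. The log2 fold change was -0.56 (SE 0.147), with a limma adjusted p of 1.00 with batch and 0.0309 with the block. With the block and 1 pair left out, the limma adjusted p was 0.0281 without pair 3 and 0.117 to 0.251 without any 1 of the other pairs, so the call was lost in 5 of these 6 fits. The log2 fold change of NFE2L2 moved little over these 6 fits, from -0.59 to -0.53. Its unadjusted p in limma ran from 6.6e-06 to 5.9e-05. With the block and all pairs, edgeR gave an adjusted p of 0.0589 and DESeq2 one of 4.89e-09. NGLY1, the enzyme that processes the related factor NFE2L1, was at 0.17 (SE 0.267) without a call. In limma with the block, 4 of the 7 were lower at an unadjusted p under 0.05 (3.68% of all genes). Beside NFE2L2 these were NFE2L1, MAFF and MAFG, named after their values were seen. Each of these 3 was lower in 5 of 6 pairs, and pair 3 stood apart for MAFG, with 225 in its scramble library against 28.7 to 85.1 in the other scramble libraries. The log2 fold change of MAFG was -0.57 with all pairs and -0.34 without pair 3. In the fits that left out 1 pair, 4 of the 7 genes were lower at that threshold without pair 3 and 3 without pair 6.

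Binding sites of these factors hold TGACNNNGC, the core of the antioxidant response element, so this motif was searched on both strands of the RefSeq promoter window (GRCh38.p14, 250 bases before to 50 after the start), which 41 of 47 members had. Printed are the members with 2 matches, PSMD3 and PSMD9, and PSMD1, which differed most between pairs, 5′ to 3′ on the strand of the gene with the matches in capitals.
PSMD1 (chr2:231056617-231056916, plus strand): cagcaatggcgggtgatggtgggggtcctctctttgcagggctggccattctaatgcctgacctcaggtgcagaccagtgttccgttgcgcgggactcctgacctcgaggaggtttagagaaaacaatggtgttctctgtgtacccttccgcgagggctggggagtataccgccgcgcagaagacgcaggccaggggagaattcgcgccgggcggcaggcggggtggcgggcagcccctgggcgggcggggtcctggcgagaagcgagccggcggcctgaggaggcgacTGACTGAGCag
PSMD3 (chr17:39980557-39980856, plus strand): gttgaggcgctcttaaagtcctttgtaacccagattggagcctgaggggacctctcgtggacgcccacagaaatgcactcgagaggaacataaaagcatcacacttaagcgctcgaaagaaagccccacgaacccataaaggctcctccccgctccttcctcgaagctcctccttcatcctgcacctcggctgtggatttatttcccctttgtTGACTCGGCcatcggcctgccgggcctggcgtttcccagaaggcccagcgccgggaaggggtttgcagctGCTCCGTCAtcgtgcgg
PSMD9 (chr12:121888540-121888839, plus strand): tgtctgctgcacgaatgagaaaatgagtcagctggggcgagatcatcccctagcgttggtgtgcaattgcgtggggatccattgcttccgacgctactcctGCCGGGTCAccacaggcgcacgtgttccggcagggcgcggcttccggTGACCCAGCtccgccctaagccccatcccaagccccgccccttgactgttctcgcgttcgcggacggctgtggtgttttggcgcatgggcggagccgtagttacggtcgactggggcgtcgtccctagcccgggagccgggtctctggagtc

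In PSMD1 the match began 40 bases after the start. In PSMD3 one began 37 bases before the start and a second, on the other strand, 34 after it. In PSMD9 they began 149 bases before, on the other strand, and 102 before. The motif was in 13 of 41 members (31.7%) and in 15.4% of the 8896 protein-coding genes with a window. CCAAT, the letters of the box bound by NF-Y, was in 18 of 41 (43.9%) against 38.1%, and TTCNNNGAA, the core of the interferon gamma activated site, in 5 of 41 (12.2%) against 6.31%. The motifs do not contain one another. With miR-28, 7 of the 13 members with TGACNNNGC were below 0, with a median log2 fold change of -0.019, and of the 28 without it 22 were below 0, with a median of -0.077. In batch 2 against batch 1, 12 of the 13 and 22 of the 28 were below 0. Neither difference between the members with and without the motif was tested. A match is a description of letters and shows no binding.

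Reads of some members may be shared. Annotated exons of 23 of 47 overlap another gene, 8 on the same strand and 19 on the opposite one, and 10 have named pseudogenes, 30 in all, of which 1 was measured. RSEM, the counter named by the submitters, divides reads among such copies by estimate, so the values of these members are uncertain to that extent.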

How the data were processed

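Polyadenylated RNA of 12 sorted Ramos libraries was sequenced. Tools named in the submitters' processing notes are cutadapt, CASAVA 1.8.2 and RSEM 1.2.3, with GRCh38 as the build; which annotation, low-value filter and scaling were used is not stated there. In the deposited table each gene has a non-negative signal value for each library, and no replicates are pooled. Every value was a whole number of reads times a fixed step, within 0.01 reads for 100% of values in each library, and edgeR's TMM factors returned the deposited values, so they were read as TMM-scaled CPM. Every gene in the table reached 1.15 in at least 1 library. Depth was 15404730 to 37876636 reads over 12725 genes; limits that a count of 0 allows use 3 reads and cover counting error only.

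Symbols were matched for 12528 identifiers, and positions, lengths and 3' UTRs came from GENCODE release 29, which may differ from the release the authors used. Promoter and microRNA sequences are RefSeq's on GRCh38.p14. In R 4.3.3, limma 3.58.1 (trend on, robust off) was fitted to log2(value + 1) over all genes with library batch and group, two-sided, with Benjamini-Hochberg adjusted p-values. Fold changes on that scale understate the change of low genes. The alternatives were the pair as a block, edgeR 4.0.16 and DESeq2 1.42.0 on the recovered reads, other scalings, pseudocounts and filters, and fits with pairs, libraries or a batch left out.

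The labels call the libraries sample pairs. Over 10388 genes with a mean of 5 or more, both libraries of a pair deviated from their group means together, with correlations from 0.74 to 0.906, and each matched its own partner best in 6 of 6 pairs, so a fit with the pair as block accompanies the fit with batch.

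The members, the lists and the rule for naming genes were chosen with earlier results of these data known. The rule names the 6 catalytic genes, the 5 members below 0 and the 4 above 0 with the smallest unadjusted p, the 2 highest and the 2 lowest per kilobase, and in each pathway list the gene with the smallest unadjusted p in each direction. It gave 16 members.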

Additional observations from a re-analysis of the deposited data

Results flagged for a closer look

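In 2 of 94 groups of 6 libraries, 1 library lay far from the other 5. Chance alone flags about 1 group in 20, so 2 of 94 is below that rate. In both groups it was the scramble library of pair 3, which also had the highest share of mitochondrial reads, 7.45%. The part of that share in these values was not tested. PSMD14, the lid enzyme that removes ubiquitin, was at 91.0 TMM-scaled CPM there, against 112 to 119 in the other scramble libraries. PSMG3, a chaperone of the core, was at 38.9, against 25.8 to 28.9.

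Of the 47 members, 1 was flagged for a difference in direction between the library batches. How often this arises by chance or among all genes was not worked out, so the case is described only. The member was again PSMD14. Its miR-28 minus scramble difference had a mean of 0.10 in batch 1, with 0.063 to 0.19 over its 3 pairs and 0.063 without pair 3, whose scramble library is the one above, and of -0.040 in batch 2, with -0.066 to -0.0021 over its 3 pairs. The interaction term of group and batch did not call it, at a limma adjusted p of 1.00 with or without the pair as a block, and at an unadjusted p of 0.279 with the block.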

How the results depend on the processing

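None of the 47 members was called under any of the 41 alternatives to the miR-28 comparison. At an unadjusted p under 0.05, the alternatives held 0 to 8 members and 12 to 1277 genes of the table. The smallest adjusted p of a member was 0.464, in limma with the block and pair 2 left out, so no member came near a call. All 779 values of the 19 members named with their values therefore stayed without a call. Of these 19 members, 10 kept the same sign throughout and the others did not. With the pair as a replicate block, 3 genes of the table were called, and the block changed the call of no member and, in the pathway lists, that of NFE2L2. Among all genes, where the fit with batch called 2, edgeR called 0, edgeR with the block 1 and DESeq2 with the block 21. Library batch 1 alone and batch 2 alone gave 0 with and without the block, as did a mean of 5 or more, a pseudocount of 5, upper quartile scaling and, with batch, leaving out pairs 3 and 6 (4 with the block). Leaving out any 1 library or any 1 pair gave 0 with batch; with the block, leaving out 1 pair gave 0 to 3. The causes were not tested. The members below 0 numbered 22 to 43 when 1 library was left out of the fit with batch and its partner kept. Differences in level between pairs entered these fits. The lowest count, 22, came without the miR-28 library of pair 3 or the scramble library of pair 5. The median of the members ranged from -0.17, without the miR-28 library of pair 5, to 0.018. It was -0.077 to -0.048 when a whole pair was left out. The median level per kilobase was 50.6 with the longest transcript, 29.8 with the union of exons and 70.4 with the median transcript of the basic set, an alternative chosen after seeing the data, as were edgeR and DESeq2 with the block and the block without pairs or batches. The comparison of library batches gave 0 calls under all 12 alternatives.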
